A study of Mus musculus with 32 samples.

Results

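Of 9 genes that mark oligodendrocytes and their myelin, 6 were found by symbol among the 17586 genes measured in microglia and macrophages sorted from mouse brain. They were Mbp, Mobp, Mag, Cnp, Olig1 and Sox10, while Mog, Cldn11 and Olig2 matched no row under a current or older symbol and were not analysed here. They were matched by symbol from a given list, and no measured value entered the matching. Oligodendrocytes wrap axons in myelin, a stack of membrane whose compact layers are held together by proteins such as Mbp and Mobp. Mag lies on the membrane facing the axon, and Cnp is a phosphodiesterase of the cytoplasm-filled, non-compact myelin. Olig1 and Sox10 are transcription factors of the lineage, and Sox10 drives myelin genes in maturing oligodendrocytes. Myeloid cells of the brain clear myelin debris and are sorted from tissue rich in it, so RNA of these genes in a myeloid library has several possible sources.

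The 32 libraries came from 4 sorted populations of 8. Normal microglia were taken from mice without a tumour, 4 of strain C57BL/6J (WT) and 4 of Pep3/CD45.1. Chimeric mice bearing GL-261, a syngeneic mouse glioma line placed in the brain, gave the other populations, labelled Tumour Microglia, Tumour Differentiated Macrophage and Tumour Undifferentiated Macrophage. There were 4 libraries from PEP-3 into WT chimeras and 4 from WT into PEP-3 chimeras in each population. The sources used here give no ages, sorting gates or number of animals, and p-values speak only of the spread between libraries, which may be technical in part. Normal microglia were labelled experiments 1 and 2 and tumour populations 3 and 4. Normal libraries were also labelled Nil where the tumour ones name a chimera, so experiment, chimerism and tumour cannot be told apart. For normal microglia, recipient below means the strain of the mouse. Within a recipient strain, tumour microglia came from one of experiments 3 and 4 and the macrophages from the other, and averaging over the strains balanced them.

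The deposited values are signed scores from -6.5 to 6.92 in which every gene averages 0, with no stated log base. A score therefore shows where a library stands relative to the others for 1 gene. It gives no level, cannot show that a transcript was absent, and cannot rank one gene against another. Depth is unknown. Differences below are fitted with limma in score units, given with their SE, and called at a Benjamini-Hochberg adjusted p below 0.05 over all genes. The table carries no variation along 11 of its 32 sample directions, and in 9 libraries these take over 50% of the library's own variation. Marker genes separated macrophages from microglia, though their lists were written with earlier results of these data known. All 10 microglia markers were lower and all 9 blood-derived macrophage markers higher in both macrophage populations than in tumour microglia. Of all genes, 6.35% and 5.19% were lower and 37% and 36.7% higher. These markers were no check of differentiated against undifferentiated macrophages or of tumour against normal microglia.

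Sequence upstream of the genes is shown for Mobp and Cnp, which carry the differences below and had entries among the RefSeq promoter sequences. The build is GRCm38.p6, while the expression values were made on mm9. Of the 6 genes, Mobp, Mag and Cnp had an entry, and no promoter is shown for Mbp, Olig1 or Sox10. The stretches run from 250 to 51 bases before the annotated start, 5′ to 3′ on the gene's strand, at chr9:120149492-120149691 (plus strand) for Mobp and chr11:100574689-100574888 (plus strand) for Cnp. Capitals mark ACAAAG or its reverse complement CTTTGT, the core word bound by SOX factors.
Mobp: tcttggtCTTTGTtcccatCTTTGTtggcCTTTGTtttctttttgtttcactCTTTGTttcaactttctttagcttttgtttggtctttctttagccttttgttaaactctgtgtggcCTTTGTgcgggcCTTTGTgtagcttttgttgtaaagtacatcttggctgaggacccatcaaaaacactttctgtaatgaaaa
Cnp: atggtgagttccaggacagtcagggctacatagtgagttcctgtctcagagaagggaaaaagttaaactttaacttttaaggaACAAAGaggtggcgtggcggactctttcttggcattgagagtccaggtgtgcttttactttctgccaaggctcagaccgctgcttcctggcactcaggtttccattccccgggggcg
The Mobp stretch held 6 copies, all as CTTTGT. That stretch is rich in T and the copies lie among similar words, so they may not be independent of one another. Of 32851 stretches of the same 200 bases in the table, some of which overlap, 13.6% held the word on either strand and 1, that of Mobp, held 6 or more. Cnp held 1 copy, and of the 3 entries for Mag 2 overlapping ones held 1 and the other none. The E-box CAGCTG, which reads alike on both strands, was in none of these stretches and in 10.3% of all. These matches describe letters and not binding.

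Cnp was higher in tumour microglia and in differentiated macrophages than in normal microglia. In normal microglia its score ran from -1.59 to 0.54 with a median of -1.19. In tumour microglia it ran from -0.04 to 1.13 with a median of 0.54. The second highest normal library lay at -0.84, below every tumour microglia library, and the groups overlapped only through the WT normal library numbered 25, at 0.54. The fitted difference was 1.70 ± 0.36 (SE, n = 8 and 8 libraries; limma adjusted p = 0.0033). This was the 1 listed gene of 6 called between these populations, where 16.7% of all genes were called, 4.66% as higher and 12% as lower. The 6 had a median difference of -0.21, against -0.25 for all genes. In bulk RNA of a sorted population, fewer cells carrying a transcript and less of it per cell cannot be told apart.

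Tumour differentiated macrophages had Cnp scores from -0.60 to 1.07 with a median of 0.63. Those of tumour undifferentiated macrophages ran from -1.40 to 0.59 with a median of 0.05. All 8 differentiated and 7 of 8 undifferentiated libraries lay above the second highest normal library. Against normal microglia, Cnp was higher in differentiated macrophages by 1.65 ± 0.37 (limma adjusted p = 0.0021). The difference for undifferentiated macrophages was 0.94 ± 0.39 and was not called (limma adjusted p = 0.072). The order of mean scores was normal microglia, undifferentiated macrophages, differentiated macrophages and tumour microglia, and no pair of the last 3 was called (limma adjusted p = 0.13 for undifferentiated macrophages against tumour microglia). With the median of each library subtracted, undifferentiated macrophages were called lower than tumour microglia, by -1.47 (limma adjusted p = 0.0066).

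The Cnp differences leaned on few libraries. That between tumour and normal microglia was called in 29 of 32 fits that each left out 1 library. It fell to 0.87 (limma adjusted p = 0.22) without normal library 10, which had kept 8.6% of its variation, and was also not called without normal libraries 1 or 18. The difference of differentiated macrophages from normal microglia was 0.69 without normal library 10 and was not called without that library or without differentiated library 28. Tumour microglia of Pep3 recipients stood 2.54 above normal microglia of Pep3 mice (limma adjusted p = 0.020). Those of WT recipients stood 0.85 above normal microglia of WT mice, which include library 25 (limma adjusted p = 0.61). The test of the difference between recipients gave an adjusted p of 0.43. Without all 9 libraries of low kept variation, tumour microglia stood 0.65 above normal microglia (limma adjusted p = 0.81). Cnp in differentiated and undifferentiated macrophages then came to -0.87 and -0.82 against normal microglia. None of these was called, and in that setting limma called at most 4 of all genes in any comparison. With library weights the differences of tumour microglia and differentiated macrophages from normal microglia were 1.42 and 1.33 and were not called (limma adjusted p = 0.060 for each).

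**Figure D1:**
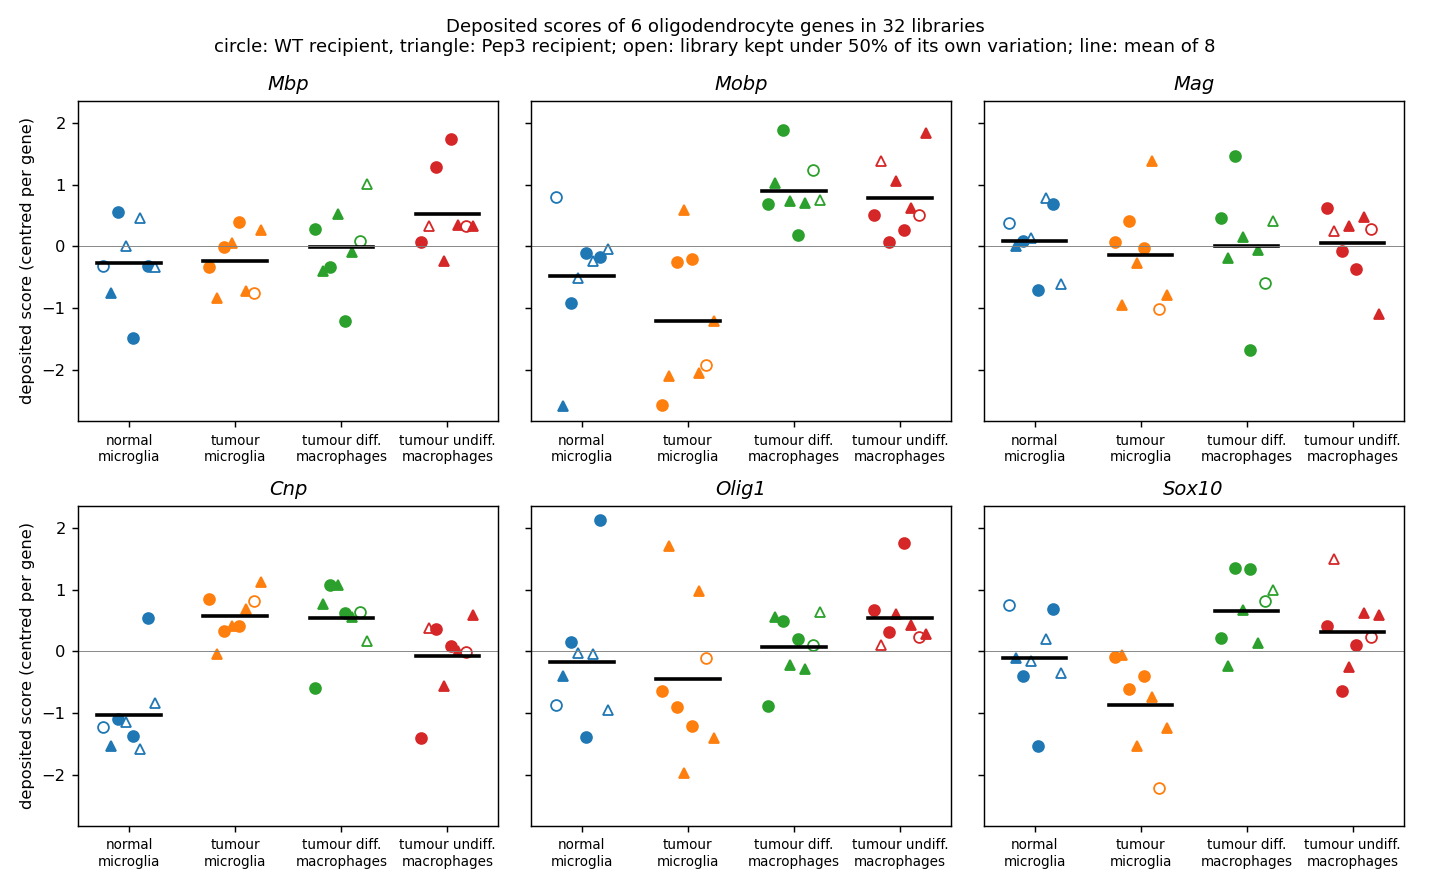
Deposited score (vertical axis, no stated unit) of each of the 6 oligodendrocyte genes in the 32 libraries, grouped by population, with circles for WT and triangles for Pep3 recipients, open symbols for libraries that kept under 50% of their variation and a line at the mean of 8. Cnp is low in 7 of 8 normal microglia libraries, Mobp lies above 0 in all 16 macrophage libraries and Mag shows no separation.

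Mobp, a small structural protein of compact myelin, was higher in both macrophage populations than in tumour microglia. Its scores in tumour microglia ran from -2.57 to 0.60 with a median of -1.57. In differentiated macrophages they ran from 0.18 to 1.89 with a median of 0.75, and in undifferentiated macrophages from 0.07 to 1.84 with a median of 0.57. All 16 macrophage libraries were above 0 and 7 of 8 tumour microglia libraries below it, and the overlap came from tumour microglia library 14, at 0.60. Differentiated macrophages were higher by 2.15 ± 0.47 (limma adjusted p = 0.00097) and undifferentiated ones by 2.34 ± 0.49 (limma adjusted p = 0.00081).

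Both Mobp differences from tumour microglia were called in 32 of 32 fits without 1 library, with ranges of 1.88 to 2.46 and 2.09 to 2.63. Subtracting library medians left 1.48 (limma adjusted p = 0.017) and 1.62 (adjusted p = 0.016). Within Pep3 recipients the differences were 2.92 (limma adjusted p = 0.011) and 3.67 (adjusted p = 0.0040). Within WT recipients they were 1.37 (limma adjusted p = 0.39) and 1.01 (adjusted p = 0.58), and neither recipient difference was called (adjusted p = 0.60 and 0.33). Fitted with only the 16 libraries compared, which left 3 residual degrees of freedom, the first came to -0.044 and the second to 0.50, neither called.

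Normal microglia were between these groups for Mobp, from -2.59 to 0.79 with a median of -0.21. Of the 8, 7 lay below 0 and library 1 reached 0.79, inside the macrophage range. The macrophages exceeded normal microglia by 1.31 ± 0.46 (differentiated, limma adjusted p = 0.032) and 1.51 ± 0.49 (undifferentiated, limma adjusted p = 0.025). These calls were less steady than those against tumour microglia, holding in 20 and 25 of 32 fits without 1 library. After median subtraction the differences were 0.89 (limma adjusted p = 0.16) and 1.03 (adjusted p = 0.14), and within WT recipients the second was -0.22. Tumour and normal microglia differed by -0.83 ± 0.45 (limma adjusted p = 0.21) and the macrophage populations by -0.19 ± 0.54 (limma adjusted p near 1), with a 95% interval of -1.31 to 0.92.

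Sox10 showed an order like that of Mobp with a smaller spread. Tumour microglia ran from -2.22 to -0.06 with a median of -0.67, and all 8 were below 0. Differentiated macrophages ran from -0.24 to 1.34 with a median of 0.74, and undifferentiated ones from -0.65 to 1.50 with a median of 0.33. In the first 7 of 8 libraries exceeded every tumour microglia library, and in the second 6 of 8 did. Sox10 was higher than in tumour microglia by 1.69 ± 0.43 in differentiated macrophages (limma adjusted p = 0.0033) and by 1.28 ± 0.45 in undifferentiated ones (limma adjusted p = 0.027). Scores of normal microglia, from -1.53 to 0.76 with a median of -0.14, overlapped those of all other populations, and no Sox10 difference from them was called.

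Tumour microglia library 27, which kept 38.96% of its variation, had the lowest Sox10 score of all. Without it the differences fell to 0.95 and 0.60, and neither was called. The first was called in 30 of 32 fits without 1 library, the other loss being undifferentiated library 8, and the second in 24 of 32. With medians subtracted the first was 1.02 (limma adjusted p = 0.049) and the second 0.56 (adjusted p = 0.31). Across the 32 libraries Mobp and Sox10 scores had a Pearson r of 0.52, the highest of the 15 pairs. It was -0.09 once the fitted population and recipient means and the removed directions were taken out, where 15 residual degrees of freedom remained. In these residuals the 15 pairs ran from -0.535 (Mobp and Olig1) to 0.528 (Olig1 and Sox10).

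Mbp, the most used myelin marker, did not pass the test in any comparison with all libraries in the fit. Its scores ran from -1.48 to 0.56 in normal microglia (median -0.32) and from -0.83 to 0.40 in tumour microglia (median -0.17). Macrophages ran from -1.21 to 1.01 (differentiated, median 0.00) and from -0.23 to 1.75 (undifferentiated, median 0.33). The undifferentiated ones sat at the upper end, mostly through WT libraries 13 and 21, and all 4 populations overlapped. They stood 1.02 ± 0.42 above tumour microglia (limma adjusted p = 0.054) and 1.02 ± 0.41 above normal microglia (adjusted p = 0.068). Without covariates for the removed directions these became 0.77 (limma adjusted p = 0.045) and 0.80 (adjusted p = 0.046), past the threshold. Leaving out 1 library gave 0.52 to 1.21 against tumour microglia, called in 7 of 32 fits, and 0.49 to 1.3 against normal microglia, called in 4 of 32. Both of the lowest values came without differentiated library 31.

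Mag, the axon-facing adhesion protein, had overlapping scores in all 4 populations. Its median scores were 0.11 and -0.14 in normal and tumour microglia and 0.05 and 0.26 in differentiated and undifferentiated macrophages, within a range of -1.68 to 1.46. The largest of its 6 differences was -0.26 ± 0.47, between tumour and normal microglia (limma adjusted p = 0.75; 95% interval -1.24 to 0.72). No Mag difference was called with all libraries in the fit. Without differentiated library 28, that of differentiated macrophages from tumour microglia was 1.52, where all libraries gave 0.15, and was called (limma adjusted p = 0.044), in 1 of 32 such fits.

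Olig1, a transcription factor of precursors and oligodendrocytes, varied most in microglia. It ran from -1.39 to 2.13 in normal microglia (median -0.22) and from -1.97 to 1.71 in tumour microglia (median -0.78). The macrophages ran from -0.89 to 0.63 (differentiated, median 0.15) and from 0.09 to 1.75 (undifferentiated, median 0.37). All 8 undifferentiated libraries were above 0, and 6 of 8 tumour microglia libraries below it. Their difference of 1.13 ± 0.58 was not called (limma adjusted p = 0.12), though library weights gave 1.75 (adjusted p = 0.031).

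**Figure D2:**
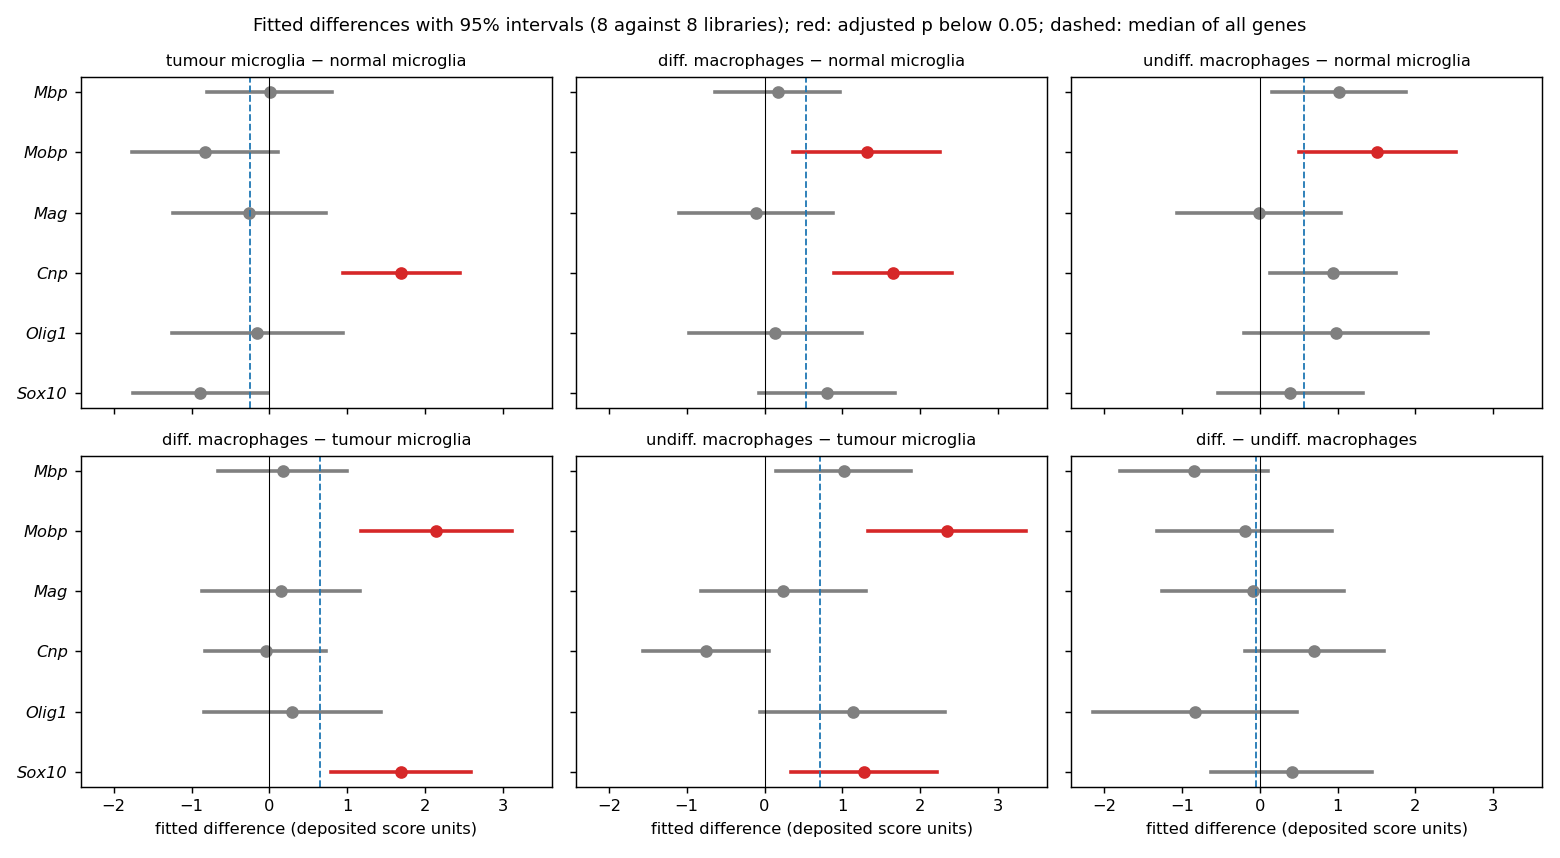
Fitted difference (horizontal axis, score units) with its 95% interval for each gene and comparison of 8 against 8 libraries, red where the limma adjusted p is below 0.05, with the median of all genes dashed. Cnp stands alone in tumour against normal microglia at 1.70, and no gene is called between the macrophage populations. Mobp and Sox10 are called and lie right of the dashed line against tumour microglia. For undifferentiated macrophages Mbp and Olig1 also lie right of it and are not called.

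Counted together, 2 of the 6 genes (Mobp and Sox10) were higher in differentiated macrophages than in tumour microglia, where 43.4% of all genes were called, 37% higher and 6.35% lower. The same 2 genes were higher in undifferentiated macrophages, beside 41.9% of all genes called, 36.7% higher and 5.19% lower. These shares are near the background. The medians of the 6 were 0.23 and 1.07, against 0.65 and 0.72 for all genes, and both comparisons use the same tumour microglia. Against normal microglia, 2 of 6 were higher in differentiated macrophages (Mobp and Cnp; 32.7% of all genes called, 24.7% higher and 8.02% lower) and 1 of 6 in undifferentiated ones (Mobp; 28% called, 21.8% higher and 6.18% lower). Between the macrophage populations none of the 6 was called by limma and none had an unadjusted p below 0.05, beside 0.0114% of all genes, and the 95% intervals of the 6 lay between -2.15 and 1.60. No listed gene was called lower in any of the 6 comparisons. Without the 9 libraries of low kept variation, and with 6 residual degrees of freedom, limma called none of the 6 genes in any comparison. It then called at most 4 of all genes in any comparison, so this setting cannot tell the 6 genes from the rest. At an unadjusted p below 0.05 it gave 1 of the 6 in tumour against normal microglia, beside 10.6% of all genes. It gave 1 of the 6 in undifferentiated macrophages against tumour microglia, beside 14.5% of all genes. A test of any difference among the 4 populations called Mobp (limma adjusted p = 0.00043), Cnp (adjusted p = 0.0012) and Sox10 (adjusted p = 0.010), 3 of 6, where 55.5% of all genes were called.

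**Figure D3:**
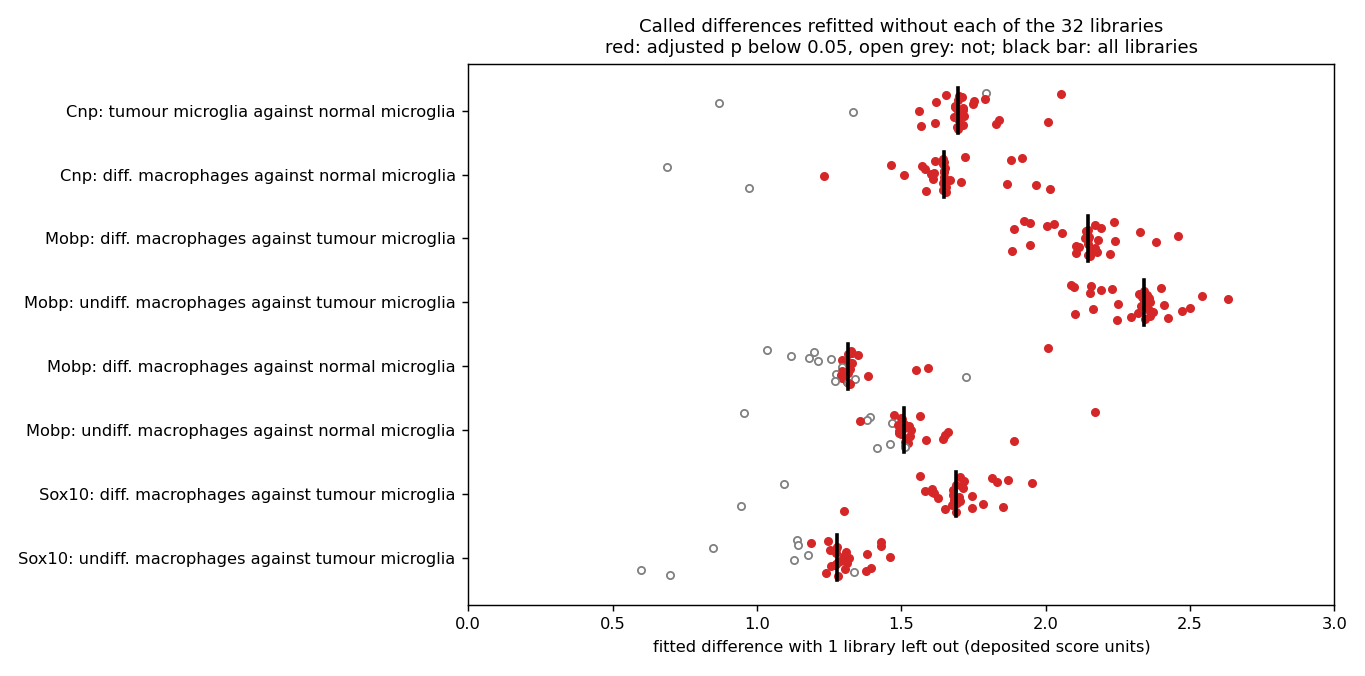
Each of the 8 called differences (rows; horizontal axis in score units) refitted without each of the 32 libraries in turn, filled red where still called, open grey where not, with a black bar for all libraries. Mobp against tumour microglia stays red throughout, while Cnp drops to 0.87 and 0.69 and Sox10 to 0.95 and 0.60 without single libraries.

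The 6 genes did not move as one. Pearson r between pairs over the 32 libraries, which share the removed directions, ran from -0.14 (Mag and Cnp) to 0.52 (Mobp and Sox10). The gene with the score pattern nearest to Cnp was Oas2, an interferon-induced enzyme, at r = 0.83 over 32 libraries, followed by AK145253 and Ftl1. Mobp was nearest to the transcript AK039624 (0.89) and Sox10 to AK038605 (0.89). Olig1 had the connexin gene Gjc3, itself made by oligodendrocytes, second at 0.70. Mbp was nearest to Ptges2 (0.80) and Mag to Nudt7 (0.77). The mean of the 6, each divided by its SD, was nearest to Gm1078 (0.90), BC053978 (0.90), the olfactory receptor gene Olfr543 (0.89), F2r (0.89), 9930022D16Rik, AK038603, 9930014A18Rik, Ces1e, BC068157 and Cachd1. None of these 10 is on the oligodendrocyte lists.

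A wider set of 78 other oligodendrocyte genes was drawn up in 6 lists, and 53 of them were in the table. Against tumour microglia, 30 of the 53 (56.6%) were higher and 6 lower in differentiated macrophages, and 29 (54.7%) were higher and 6 lower in undifferentiated ones. Of all genes, 37% and 36.7% were higher and 6.35% and 5.19% lower. The median differences of the 53 were 1.47 and 1.68. Between tumour and normal microglia 3 of the 53 (5.66%) were higher and 13 (24.5%) lower, beside 4.66% and 12% of all genes. Between the macrophage populations limma called none of the 53, and 1 had an unadjusted p below 0.05. Another fit, chosen after seeing the data, left out the 9 libraries of low kept variation and the covariates. In it 24 and 26 of the 53 were higher than in tumour microglia and 3 and 4 lower. Of all genes, 26.3% and 26.4% were then higher and 4.75% and 3.85% lower. Between tumour and normal microglia none of the 53 was called, beside 0.62% of all genes higher and 0.136% lower. With the covariates kept and 6 residual degrees of freedom, limma called none of the 53 against tumour microglia. Of all genes it called 0 and 3. Of the 53, 10 and 15 had an unadjusted p below 0.05, beside 11% and 14.5% of all genes.

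Precursor genes made up the largest share. Of 12, 11 were higher in differentiated macrophages than in tumour microglia, and 11 were in undifferentiated ones, beside 37% and 36.7% of all genes. Cspg4, the NG2 proteoglycan of precursors, was higher by 2.47 ± 0.54 in differentiated macrophages (limma adjusted p = 0.00098). Pdgfra, the receptor that drives precursor division, was higher by 1.93 ± 0.42 there and by 2.32 ± 0.43 in undifferentiated ones (limma adjusted p = 0.00084 and 0.00030). Ptprz1, a receptor phosphatase, was higher by 2.39 ± 0.41 and 2.51 ± 0.43 (limma adjusted p = 0.00011 and 0.00014), and was lower in tumour than in normal microglia by -1.99 ± 0.39 (adjusted p = 0.0020). In all, 5 of the 12 were lower in tumour than in normal microglia, beside 12% of all genes. So were 4 of 8 neuron, 2 of 11 astrocyte and 1 of 9 endothelial and pericyte markers.

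Lineage transcription factors other than the listed ones went the same way as Sox10 against tumour microglia. Of 7, 5 were higher in differentiated and 4 in undifferentiated macrophages, beside 37% and 36.7% of all genes. Gm98, the older symbol of the myelin regulator Myrf, was higher by 3.12 ± 0.39 and 2.62 ± 0.41 (limma adjusted p = 1.3e-05 and 6.6e-05). Sox8, the close relative of Sox10, was higher by 2.97 ± 0.47 and 3.34 ± 0.49 (limma adjusted p = 6.0e-05 and 4.1e-05). Zfp488, an Olig2 cofactor, was higher by 2.00 ± 0.34 in differentiated macrophages and lower in tumour than in normal microglia by -2.20 ± 0.32 (limma adjusted p = 0.00010 and 0.00024).

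Genes of myelin itself were split. Of the 6 other compact myelin genes, 2 were higher and 2 lower in each macrophage population than in tumour microglia. Of all genes, 6.35% and 5.19% were lower there. Against normal microglia, 3 of the 6 were lower in each macrophage population, and 0 and 2 were higher. Of all genes, 8.02% and 6.18% were then lower and 24.7% and 21.8% higher. The mean score of the 6 had a median of 0.34 in normal and -0.16 in tumour microglia. It was -0.26 in differentiated and -0.03 in undifferentiated macrophages. Against tumour microglia, Mal, a myelin proteolipid, was higher by 1.43 ± 0.44 in differentiated macrophages (limma adjusted p = 0.012). Pmp22, which other tissues also make, was lower there by -2.34 ± 0.51 (limma adjusted p = 0.00087). With library medians subtracted, 0 of the 6 were called higher and 3 lower in differentiated macrophages. Leaving out the 9 libraries of low kept variation and the covariates gave 0 and 2. In undifferentiated macrophages these settings gave 2 higher and 3 lower, and 2 higher and 1 lower. Of 6 adhesion and junction genes, 4 were higher and 1, the junction protein gene Jam3, lower in each macrophage population. The higher ones included Omg at 2.20 ± 0.64 and Ermn at 1.76 ± 0.43 in differentiated macrophages (limma adjusted p = 0.0077 and 0.0023). Of 10 enzymes of myelin and its lipids, 3 were higher and 1 lower, with Ugt8a, which makes galactosylceramide, at 1.57 ± 0.38 (limma adjusted p = 0.0019). Of 12 other mature oligodendrocyte genes, 5 were higher and 2 lower in each. The shares higher among the enzymes (30%) and the mature genes (41.7%) were near the 37% and 36.7% of all genes.

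Genes of other brain cells moved in the same comparisons. In differentiated macrophages against tumour microglia, 9 of 11 astrocyte, 7 of 8 neuron and 7 of 9 endothelial and pericyte markers were higher. In undifferentiated macrophages these counts were 7, 7 and 6, where 37% and 36.7% of all genes were higher. The astrocyte transporter gene Slc1a3 was lower in both, by -1.63 ± 0.37 and -1.53 ± 0.38 (limma adjusted p = 0.0012 and 0.0030). Of 9 genes that myeloid cells share, such as Ptprc and Csf1r, none was higher than in tumour microglia, and 3 were lower in differentiated and 6 in undifferentiated macrophages. Their median differences were -0.64 and -1.07, against 0.65 and 0.72 for all genes, and with library medians subtracted 8 and 7 of the 9 were lower. Olfactory receptor genes, a family of sensory neurons counted after the genes most like the 6 had been seen, gave 372 of 544 (68.4%) higher and none lower in differentiated and 375 (68.9%) higher and none lower in undifferentiated macrophages, with medians of 1.38 and 1.53. With library medians subtracted, 22 and 22 of the 53 oligodendrocyte genes were higher and 11 and 10 lower. Of the 544 olfactory receptor genes, 132 and 118 were then higher. Under that setting 19.8% and 16.7% of all genes were higher and 19.2% and 16.3% lower. The mean score of the olfactory receptor genes in a library ran from -1.50 to -0.11 in tumour microglia. It ran from -0.10 to 1.17 in differentiated macrophages and from -0.34 to 1.01 in the undifferentiated ones. Over the 32 libraries that mean had r = 0.64 with Mobp, 0.65 with Sox10 and 0.00 with Cnp. Means of oligodendrocyte lists gave, for Mobp and Sox10, 0.75 and 0.74 (precursor genes) and 0.71 and 0.79 (other lineage factors). Compact myelin gave -0.01 and 0.00, astrocyte markers 0.63 and 0.71, and neuron markers 0.71 and 0.60. The part of the shifts of these groups of genes in the Mobp and Sox10 results was not tested, nor were myelin uptake or carry-over of other cells' RNA.

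**Figure D4:**
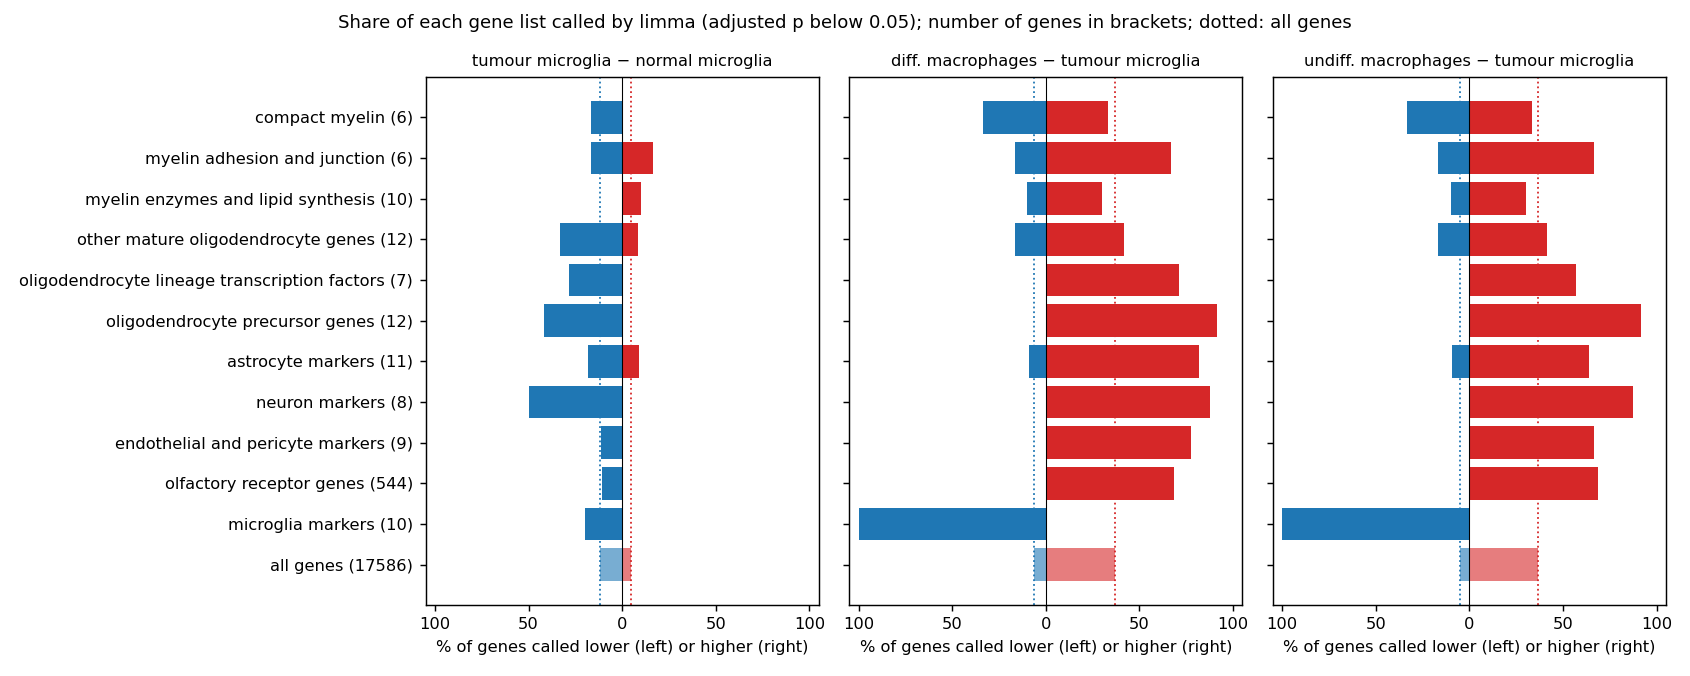
Percent of the genes of each list (rows, number of genes in brackets) called lower (blue, left) or higher (red, right) by limma in 3 comparisons, with dotted lines at the shares of all genes. Against tumour microglia, oligodendrocyte precursor genes, neuron, astrocyte and endothelial markers and the 544 olfactory receptor genes all lie beyond the 37% and 36.7% of all genes called higher, while compact myelin is split.

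The recipient strains were compared for each gene and comparison. None of the 36 differences between recipients was called by limma and 1 had an unadjusted p below 0.05, that of Mobp in undifferentiated macrophages against normal microglia (-3.45 ± 1.29, WT minus Pep3; adjusted p = 0.44). The mean deposited Mobp scores were 1.00 in differentiated macrophages and -1.24 in tumour microglia of WT recipients, and 0.81 and -1.19 in those of Pep3 recipients. These means lay farther apart in WT recipients, while the fitted difference given above was larger in Pep3 recipients.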

How the data were processed

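RNA from sorted cells was made into cDNA using Clontech's SMART-Seq v4 reagents for small inputs, per the labels' protocols. The submitters' processing notes name the tools RSEM 1.3.0, STAR 2.5.0a and FastQC and the build mm9. The deposited table is named as normalised counts but holds signed scores, with a mean of 0 for each gene over all libraries and within each recipient strain. The libraries span 21 dimensions of 32. The step that removed the other 11 directions is not given in the sources used here.

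Scores were used as deposited, with no filter or pseudocount, though log values had been planned for. The test was that of limma 3.58.1 (R 4.3.3; robust empirical Bayes, two-sided, adjusted over 17586 genes). The model held 8 means, one per population and recipient, and the removed directions as covariates, leaving 15 residual degrees of freedom. Contrasts averaged the recipients. The script was tested on simulated data. Alternatives were median subtraction, no covariates, library weights, no moderation, non-robust moderation, only the compared libraries, fewer libraries, and each recipient.

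Named from the other lists were called genes with the largest differences, at most 4 per list and comparison. One gene's result is not reported here. Genes and lists were chosen with earlier results of these data known.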

Additional observations from a re-analysis of the deposited data

Results flagged for a closer look

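In 24 sets of 8 libraries (6 genes in 4 populations), 3 had a highest library far from its neighbours by Dixon's criterion, which chance meets in about 1 of 20 sets. Cnp was 0.54 in WT normal microglia library 25, with the next normal library at -0.84. Olig1 was 2.13 in the same library, with the next at 0.15. Mean scores of that library were not raised for the wider lists as a whole: 0.17 for compact myelin, the lowest of the 8 normal libraries, 0.36 for other mature oligodendrocyte genes, the highest of the 8, and -0.81 for precursor genes. Olig1 was 1.75 in WT undifferentiated macrophage library 21, with the next at 0.67, and Mbp was also highest there, at 1.75. The causes were not tested.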

How the results depend on the processing

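No paired analysis was possible because every library has its own number. The planned pseudocounts and filters on low values were not run, since signed scores have no logarithm. Depth is unknown, so what it limits could not be assessed. Non-robust moderation changed no count of called genes among the 6. Of the 6 genes, the number called in tumour against normal microglia (1) was 0 with library weights, without the 9 libraries of low kept variation, and without them and covariates, the last chosen after seeing the data, and 0 to 2 without 1 library. In differentiated macrophages against tumour microglia (2) it was 0 without the 9 libraries and with only the compared libraries, and 1 to 3 without 1 library. In undifferentiated macrophages against tumour microglia (2) it was 0 under the same settings and 3 without covariates. It was 1 without the 9 libraries and covariates, and 1 to 3 without 1 library. With medians subtracted 1 gene was called higher and 1, Cnp, lower. With weights it was 2, with Olig1 among them, so Mobp and Sox10 were not both called. In differentiated macrophages against normal microglia (2) it was 1 with medians subtracted or no moderation, 0 with weights, without the 9 libraries or with only the compared libraries, and 0 to 3 without 1 library. In undifferentiated macrophages against normal microglia (1) it was 3 without covariates, 0 with medians subtracted, weights, without the 9 libraries or with only the compared libraries, and 0 to 2 without 1 library. The test of any difference (3 genes) called 0 without the 9 libraries. Fits without the 9 libraries or with only the compared ones had fewer samples, and the other causes were not tested. The values that changed sign, nearly all of differences that were not called, follow by setting. With library medians subtracted, the sign turned in tumour against normal microglia for Olig1 0.090, in differentiated macrophages against tumour microglia for Mbp -0.50 and Mag -0.52 and Olig1 -0.37, in undifferentiated macrophages against tumour microglia for Mag -0.48, in differentiated macrophages against normal microglia for Mbp -0.25 and Olig1 -0.28, in undifferentiated macrophages against normal microglia for Sox10 -0.084. Without covariates, the sign turned in differentiated against undifferentiated macrophages for Mobp 0.12. With library weights, the sign turned in differentiated macrophages against tumour microglia for Mbp -0.062 and Mag -0.051, in undifferentiated macrophages against tumour microglia for Mag -0.039, in differentiated macrophages against normal microglia for Olig1 -0.25. Without the 9 libraries, the sign turned in tumour against normal microglia for Mobp 1.85, in differentiated macrophages against tumour microglia for Mbp -1.04, in undifferentiated macrophages against tumour microglia for Mbp -0.28, in differentiated against undifferentiated macrophages for Mobp 0.16 and Cnp -0.056, in differentiated macrophages against normal microglia for Mbp -0.42 and Cnp -0.87 and Olig1 -0.35 and Sox10 -0.35, in undifferentiated macrophages against normal microglia for Cnp -0.82 and Sox10 -0.50. Without the 9 libraries and without covariates, the sign turned in tumour against normal microglia for Mobp 0.39, in differentiated macrophages against tumour microglia for Mbp -0.060 and Cnp 0.049, in undifferentiated macrophages against tumour microglia for Mag -0.019, in differentiated against undifferentiated macrophages for Mobp 0.14 and Mag 0.046, in differentiated macrophages against normal microglia for Mag 0.015. With only the compared libraries, the sign turned in differentiated macrophages against tumour microglia for Mbp -0.72 and Mobp -0.044, in differentiated against undifferentiated macrophages for Mag 0.41 and Sox10 -0.50, in differentiated macrophages against normal microglia for Mbp -0.53 and Olig1 -0.51, in undifferentiated macrophages against normal microglia for Mag 0.23 and Sox10 -0.11. Within WT recipients, the sign turned in differentiated macrophages against tumour microglia for Mbp -0.41 and Mag -0.041, in differentiated against undifferentiated macrophages for Mobp 0.36, in differentiated macrophages against normal microglia for Mbp -0.060 and Olig1 -0.67, in undifferentiated macrophages against normal microglia for Mobp -0.22 and Cnp -0.029. Within Pep3 recipients, the sign turned in tumour against normal microglia for Mbp -0.35 and Olig1 1.00, in differentiated macrophages against tumour microglia for Cnp 0.13 and Olig1 -0.047, in differentiated against undifferentiated macrophages for Mag 0.084 and Sox10 -0.31, in differentiated macrophages against normal microglia for Mag 0.075. For Mobp, leaving out 1 library turned the sign and gave -1.20 to 0.084 in tumour against normal microglia, -0.37 to 0.081 in differentiated against undifferentiated macrophages. For Mag, leaving out 1 library turned the sign and gave -1.30 to 0.42 in tumour against normal microglia, -1.17 to 1.04 in differentiated macrophages against normal microglia, -1.01 to 0.61 in undifferentiated macrophages against normal microglia, -0.48 to 1.52 in differentiated macrophages against tumour microglia, -0.34 to 0.43 in differentiated against undifferentiated macrophages, -0.34 to 1.09 in undifferentiated macrophages against tumour microglia. For Olig1, leaving out 1 library turned the sign and gave -0.72 to 0.52 in differentiated macrophages against normal microglia, -0.99 to 0.31 in tumour against normal microglia, -0.021 to 0.62 in differentiated macrophages against tumour microglia. For Mbp, leaving out 1 library turned the sign and gave -0.32 to 0.44 in tumour against normal microglia, -0.19 to 0.68 in differentiated macrophages against normal microglia, -0.16 to 0.43 in differentiated macrophages against tumour microglia. For Cnp, leaving out 1 library turned the sign and gave -0.86 to 0.30 in differentiated macrophages against tumour microglia. For Sox10, leaving out 1 library turned the sign and gave -0.22 to 0.76 in undifferentiated macrophages against normal microglia.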
